A study of Mus musculus with 9 samples.

Results

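The small leucine-rich proteoglycans Dcn, Bgn, Lum, Fmod, Ogn, Prelp, Aspn and Podn and the large proteoglycan Vcan were followed in libraries of regulatory T cells (Tregs). The 9 genes were chosen by symbol from the 49510 genes of the count table, and each symbol matched 1 gene. Heart Treg libraries (n = 3) were compared with Treg libraries of the mediastinal lymph node, or MLN, which drains the heart (n = 3), and of the spleen (n = 3). All groups came from Foxp3-GFP transgenic mice, which report the Treg factor Foxp3 by fluorescence, at 8 weeks of age and 3 days after ischemia/reperfusion (I/R) injury of the heart, so no uninjured heart was compared. Cells were sorted by magnetic beads and then by flow cytometry. Whether the libraries came from separate animals or from pools is not said in the labels. The p-values therefore measure the spread between these libraries only, and that spread may be technical.

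Small leucine-rich proteoglycans are secreted matrix proteins with a core of leucine-rich repeats, most of which carry chondroitin, dermatan or keratan sulfate chains. They coat collagen fibrils, set fibril width and spacing, and bind growth factors such as TGF-beta. Versican, encoded by Vcan, is a far larger chondroitin sulfate proteoglycan that binds hyaluronan in the loose, provisional matrix of injured tissue. In the heart, fibroblasts are the best known source of these proteins, and monocytes and macrophages are a further source of versican.

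Totals lay between 156194012 and 267520538 counts per library. Foxp3 stood at 8.77, 38.0 and 0.240 CPM (counts scaled to library size) in heart libraries 1, 2 and 3, at 41.8 to 46.3 CPM in the MLN and at 31.2 to 187 CPM in the spleen. A list of 12 Treg and T cell genes was counted in full in every organ and took 0.223 to 0.387% of heart counts, 0.601 to 0.779% of MLN counts and 0.572 to 0.747% of spleen counts. Heart 2, MLN 3 and spleen 3 had the highest scaling factor of their organ (1.11, 1.17 and 1.24, where the other 6 libraries lay between 0.754 and 1.01), and Foxp3 was lowest in heart 3 and highest in spleen 3. In bulk libraries such as these, fewer cells of a type and less RNA per cell cannot be told apart.

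Members sit in known clusters of the family on GRCm38, the assembly that mm10 names. Dcn (chromosome 10, 97479609 to 97518143) and Lum (chromosome 10, 97565128 to 97572703) are on the plus strand, 47.0 kb apart, with no coding gene between them. Aspn (chromosome 13, 49544443 to 49567565) is followed by Omd after 14.9 kb and then by Ogn (chromosome 13, 49608046 to 49624501) after a further 15.2 kb. Prelp (chromosome 1, 133910304 to 133921414, minus strand) and Fmod (chromosome 1, 134037254 to 134048277, plus strand) point away from each other across 116 kb. Bgn (chromosome X, 73483602 to 73495933), Podn (chromosome 4, 108014791 to 108096445) and Vcan (chromosome 13, 89655312 to 89742509) stand outside these clusters. The strand setting of the authors' counting is not given in the sources used here. Prelp shares 350 exon bases with the antisense gene Gm15851, which had no count in any library, and Aspn shares 7 with Cenpp. No exon of Ogn, Podn or Vcan was shared with another gene.

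Promoters are shown for Bgn and Vcan, which passed the test of the heart against at least 1 lymphoid organ, and for Aspn and Ogn, cluster neighbours with high levels in the heart. Each is the 250 bases before the RefSeq start, 5′ to 3′, build GRCm38.p6, and 7 of the 9 genes matched an entry in that table. Capitals mark matches, on either strand, to the TATA box (TATAAA), the GC box (GGGCGG), the TEAD motif (GGAATG) and the RUNX motif (TGTGGT).
Bgn (chrX:73483351-73483600, plus strand): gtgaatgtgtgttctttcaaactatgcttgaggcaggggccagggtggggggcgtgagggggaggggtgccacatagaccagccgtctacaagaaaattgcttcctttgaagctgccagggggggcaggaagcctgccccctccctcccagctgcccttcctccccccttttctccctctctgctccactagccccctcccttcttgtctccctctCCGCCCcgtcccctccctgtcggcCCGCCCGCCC
Vcan (chr13:89742513-89742762, minus strand): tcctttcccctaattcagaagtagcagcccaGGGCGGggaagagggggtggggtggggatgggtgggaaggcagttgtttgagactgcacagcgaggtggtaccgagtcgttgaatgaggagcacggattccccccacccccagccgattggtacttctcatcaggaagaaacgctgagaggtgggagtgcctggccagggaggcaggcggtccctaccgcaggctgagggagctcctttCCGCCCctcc
Aspn (chr13:49544193-49544442, plus strand): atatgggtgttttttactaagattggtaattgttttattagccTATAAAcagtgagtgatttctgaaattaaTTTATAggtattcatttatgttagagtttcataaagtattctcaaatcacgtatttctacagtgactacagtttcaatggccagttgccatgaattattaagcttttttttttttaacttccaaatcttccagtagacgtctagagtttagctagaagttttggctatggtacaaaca
Ogn (chr13:49607765-49608014, plus strand): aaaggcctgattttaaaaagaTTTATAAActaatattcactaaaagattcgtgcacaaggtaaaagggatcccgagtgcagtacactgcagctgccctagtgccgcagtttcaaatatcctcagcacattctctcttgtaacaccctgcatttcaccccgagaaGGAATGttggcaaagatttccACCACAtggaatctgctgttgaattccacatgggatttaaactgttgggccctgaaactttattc
Bgn had 3 GC boxes, the last 2 of them overlapping, and Vcan had 2, while neither had a TATA box. Aspn and Ogn had TATA matches, in Ogn overlapping on both strands, at 178 to 229 bases before the start. Ogn also held 1 TEAD and 1 RUNX match. Of all 32851 promoters in the table, 12.4% hold the TATA letters, 32.7% the GC box, 12.6% the TEAD letters and 14.0% the RUNX letters. The AP-1 motif TGANTCA (6.75% of promoters) and the SMAD motif GTCTAGAC (0.167%) were searched too and are not in the 250-base windows of the 7 members with an entry. Bases G and C made up 64.4% of the Bgn window, 62.4% of the Vcan window, 30.0% of the Aspn window and 42.0% of the Ogn window, against a median of 52.4% over all promoters.

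Decorin and biglycan, the closest relatives in the family, were abundant in every heart library and close to absent from the lymphoid libraries. Dcn, which encodes the collagen-coating, TGF-beta-binding proteoglycan decorin, stood at 16297, 2171 and 3797 CPM in heart 1, 2 and 3. It stood at 3.65, 1.37 and 4.67 CPM in MLN 1, 2 and 3 and at 0.141, 0.170 and 0.238 CPM in spleen 1, 2 and 3. The lowest heart library was thus far above every lymphoid library, although the heart libraries differed among themselves by 7.51-fold. Dcn rose in the heart against the MLN (log2 11.17, SE 1.16, adjusted p = 0.0152, edgeR) and against the spleen (log2 15.30, SE 1.32, adjusted p = 0.0238). Both values come from the quasi-likelihood test of edgeR, with p-values adjusted by Benjamini-Hochberg over 16609 genes. The heart values are the same in both comparisons, so the tests are not independent.

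Bgn, which encodes biglycan, a collagen-binding proteoglycan that in soluble form engages the innate receptors TLR2 and TLR4, stood at 173, 69.5 and 36.2 CPM in heart 1, 2 and 3. In the lymphoid organs it had 5 counts in MLN 2, 5 counts in spleen 2 and no count in the other 4 libraries. Every heart library was therefore above every lymphoid library. Bgn rose against the MLN (log2 13.51, SE 2.25, adjusted p = 0.0362) and against the spleen (log2 13.42, SE 2.25, adjusted p = 0.0442, same edgeR test). Adjusted p-values of the whole table moved with the number of libraries: without 1 of the 9 libraries, 0 to 249 genes passed against the MLN and 0 to 122 against the spleen. For Dcn the call against the MLN ended without MLN 1 (adjusted p = 0.0597) or heart 3 (0.0609), and that against the spleen ended without spleen 1 (0.0716), spleen 2 (0.0658), spleen 3 (0.0594) or heart 3 (0.0780). For Bgn the call against the MLN ended without MLN 1 (0.112), MLN 2 (0.0850), MLN 3 (0.0977), heart 1 (0.122), heart 2 (0.0833) or heart 3 (0.0992), and that against the spleen ended without any 1 library but MLN 3 (0.152 without heart 1, 0.131 without spleen 1, 0.115 without heart 3, 0.0974 without spleen 3, 0.0954 without spleen 2, 0.0934 without heart 2, 0.0540 without MLN 1 and 0.0520 without MLN 2).

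**Figure D1:**
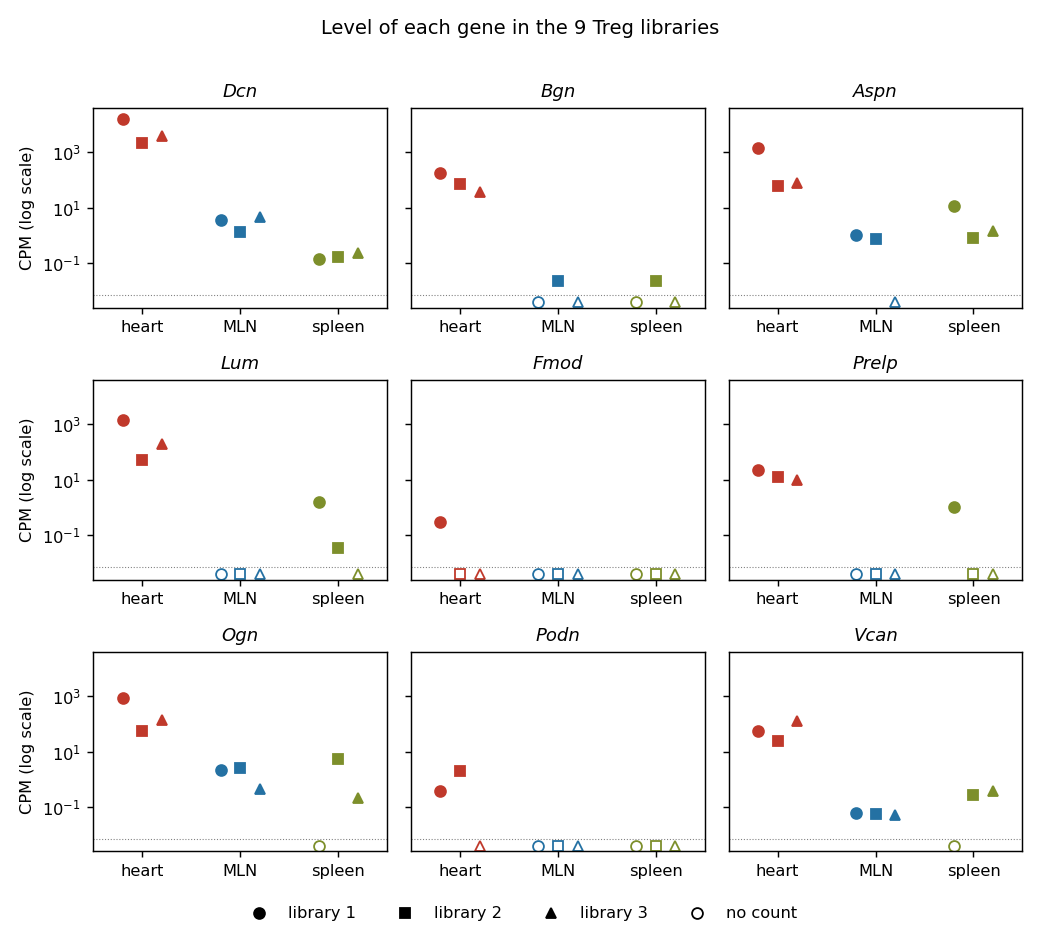
CPM of each gene (vertical axis, log scale) in the 3 libraries each of heart, MLN and spleen Tregs. Marker shapes give the library number, and open markers under the dotted line are libraries with no count. In Dcn, Bgn, Aspn, Lum, Prelp, Ogn and Vcan all 3 heart libraries lie above all 6 lymphoid libraries, whereas Fmod and Podn have counts in 1 and 2 heart libraries.

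Asporin, lumican, osteoglycin and PRELP followed the same split between organs with larger spread. Aspn encodes asporin, a decorin relative that binds collagen and TGF-beta, and stood at 1442, 59.3 and 80.1 CPM in heart 1, 2 and 3. It stood at 1.05, 0.752 and 0 CPM in MLN 1, 2 and 3 and at 12.0, 0.779 and 1.49 CPM in spleen 1, 2 and 3. Heart 1 was 24.3-fold above heart 2, and spleen 1 was the highest lymphoid library. The heart did not pass against the MLN (log2 9.78, SE 2.60, adjusted p = 0.107) or against the spleen (log2 6.80, SE 2.30, adjusted p = 0.213, edgeR).

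Lum encodes lumican, a keratan sulfate proteoglycan of collagen fibrils, and stood at 1385, 49.1 and 189 CPM in heart 1, 2 and 3. It had no count in the MLN, and 1.54, 0.0331 and 0 CPM in spleen 1, 2 and 3. Against the floor of 3 counts per library that a count of 0 allows, the heart mean of Lum was at least 41069-fold above the MLN. Bounds of this kind use organ means and need not hold for each library, and heart 1 held 85.4% of the heart CPM of Lum. The difference from the MLN had an adjusted p of 0.0856, and the difference from the spleen (log2 10.02, SE 2.96) one of 0.184 (edgeR). Floors and intervals of counting cover counting error only, since reads amplified by PCR are not independent molecules.

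Ogn encodes osteoglycin, a fibril-binding member also called mimecan, and stood at 842, 55.6 and 136 CPM in heart 1, 2 and 3. It stood at 2.08, 2.54 and 0.444 CPM in MLN 1, 2 and 3 and at 0, 5.31 and 0.207 CPM in spleen 1, 2 and 3. The highest lymphoid library, spleen 2, was below the lowest heart library. The adjusted p was 0.152 against the MLN (log2 7.67, SE 2.40) and 0.178 against the spleen (log2 7.55, SE 2.38, edgeR).

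Prelp encodes a heparin-binding protein that links basement membranes to collagen, and stood at 23.0, 12.4 and 9.83 CPM in heart 1, 2 and 3. It was the steadiest member within the heart, with 2.33-fold between the highest and the lowest library. It had no count in the MLN and counts in 1 spleen library, spleen 1, at 1.04 CPM. The heart was at least 1145-fold higher than the MLN (adjusted p = 0.144), and the difference from the spleen had an adjusted p of 0.512 (log2 5.44, SE 2.87, edgeR).

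Fibromodulin and podocan were near the limit of detection. Fmod, which encodes a keratan sulfate proteoglycan of collagen fibrils, had 53 counts in heart 1 and none in the other 8 libraries. Podn, which encodes podocan, a member of the family known from vascular smooth muscle, had 69 counts in heart 1, 517 in heart 2 and none in heart 3 or the lymphoid libraries. The heart libraries of both genes therefore overlapped the lymphoid libraries, and neither gene passed the filter on low counts.

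Versican was present in every heart library and low in every lymphoid one. Vcan stood at 57.4, 24.7 and 132 CPM in heart 1, 2 and 3. It had 13 counts in each MLN library, or 0.0502 to 0.0624 CPM, and 0, 0.274 and 0.373 CPM in spleen 1, 2 and 3. The groups did not overlap, and the highest heart library was heart 3. Vcan rose against the MLN (log2 10.27, SE 1.85, adjusted p = 0.0429) and did not pass against the spleen (log2 8.36, SE 1.72, adjusted p = 0.0699, edgeR). The call against the MLN ended without heart 3 (0.135), heart 2 (0.0823), heart 1 (0.115), MLN 1 (0.149), MLN 2 (0.146), MLN 3 (0.134), spleen 2 (0.0584) or spleen 3 (0.0510).

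**Figure D2:**
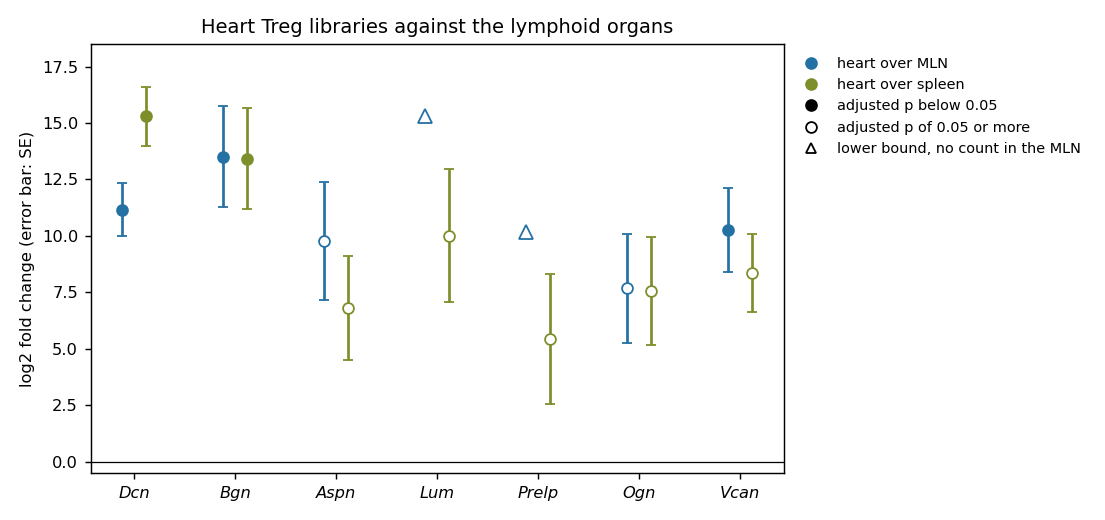
Log2 fold change of the heart over the MLN and over the spleen (vertical axis) for the 7 genes that passed the filter on low counts, with error bars of 1 SE. Filled points passed the test (Dcn and Bgn in both comparisons, Vcan against the MLN), and triangles are lower bounds where the MLN had no count.

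Against the MLN, 3 of the 9 genes rose, where 1.1% of the 16609 genes tested did, and none fell. Against the spleen, 2 of the 9 rose, where 0.614% of all tested genes did. Every heart library was above every library of the other organ for 7 of the 9 genes in each comparison, where this held for 14.9% of genes tested against the MLN and 12.4% against the spleen. Genes with counts in 1 organ only enter the test because that organ is high, so these counts describe the 9 genes and no more. Without heart 2, MLN 3 and spleen 3, which had the highest scaling factors, no member passed: against the MLN the adjusted p was 0.100 for Dcn, 0.137 for Bgn and 0.174 for Vcan, and against the spleen 0.102 for Dcn and 0.148 for Bgn (edgeR), with unchanged directions.

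Markers of stromal, myeloid and heart muscle cells also had higher summed levels in the heart libraries. All 20 genes of a fibroblast list had counts in the heart, with a sum of 2042 to 7356 CPM. They summed to 36.3 to 64.0 CPM in the MLN and 16.8 to 58.7 CPM in the spleen. In the MLN 9 of the 20 had no count, and in the spleen 9. Gsn alone gave 2991 CPM in heart 2. Without Gsn and Thy1, chosen after their values were seen, heart 1, 2 and 3 summed to 6613, 920 and 1562 CPM. Of the 20, 5 rose in the heart against the MLN, where 1.1% of all genes tested did. Against the spleen 6 rose, where 0.614% of all genes tested did, and none fell in either comparison. Among the defining genes, the receptor Pdgfra stood at 4.05, 1.37 and 4.70 CPM in heart 1, 2 and 3, and at 0 CPM in all MLN libraries and 2 of 3 spleen libraries. The transcription factor Tcf21 stood at 9.16, 6.50 and 3.80 CPM in heart 1, 2 and 3 against 0 to 0.0135 CPM in the MLN and none in the spleen. Neither gene passed against the MLN (adjusted p = 0.138 for Pdgfra and 0.104 for Tcf21) or the spleen (0.374 and 0.0835, edgeR). The receptor Ddr2 stood at 38.5, 34.6 and 0 CPM in heart 1, 2 and 3 with no lymphoid count, and did not pass the filter on low counts. A list of 16 monocyte and macrophage genes summed to 11622 to 26190 CPM in the heart, 1560 to 2231 CPM in the MLN and 3832 to 5045 CPM in the spleen. Each of these genes had counts in every organ, though not in every library. Mrc1 had none in MLN 1 and MLN 2, Adgre1 none in MLN 1 and spleen 2, F13a1 none in MLN 1 and Itgam none in MLN 2. Of the 16, 7 rose against the MLN and 3 against the spleen, beside the same 1.1% and 0.614% of all genes tested. Pericyte and smooth muscle genes (8) summed to 46.1 to 249.5 CPM in the heart, 0.331 to 6.24 CPM in the MLN and 0 to 0.356 CPM in the spleen. Endothelial genes (10) summed to 761 to 1987 CPM in the heart, 95.1 to 125 CPM in the MLN and 92.3 to 218 CPM in the spleen. The 7 mast cell genes summed to 8232, 5036 and 12.6 CPM in heart 1, 2 and 3, against 6.44 to 57.3 CPM in the MLN and 0.619 to 41.3 CPM in the spleen. The 12 cardiomyocyte genes summed to 144 to 448 CPM in the heart. In the MLN they summed to 5.64 to 8.65 CPM and in the spleen to 13.5 to 53.8 CPM. Mb gave 61.0, 110 and 345 CPM in heart 1, 2 and 3. Most of the lymphoid sums came from Ttn, at 5.63 to 8.52 CPM in the MLN and 12.9 to 52.6 CPM in the spleen. Ttn was lower in every heart library, at 1.66 to 5.64 CPM, than in every spleen library. The 6 reticular cell genes summed to 164 to 407 CPM in the heart. In the MLN they summed to 0.765 to 8.72 CPM and in the spleen to 0 to 1.03 CPM. Most of the heart sums came from Pdpn, at 338, 296 and 135 CPM in heart 1, 2 and 3. Cxcl13 was higher on average in the MLN (3.89 CPM) than in the heart (0.307 CPM), and Madcam1 had no count. Ccl19, Ccl21a and Il7 were higher on average in the heart, but stood at 0.287, 0.0519 and 0 CPM in heart 2. The part of these cells in the levels of the proteoglycans was not tested.

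Within the heart, the 9 genes were not all highest in the same library. Heart 1 held 91.2% of the summed heart CPM of Aspn, 85.4% of Lum, 81.4% of Ogn, 73.2% of Dcn, 62.1% of Bgn and 50.8% of Prelp, and all of the counts of Fmod. Podn differed, with 84.2% in heart 2 and 15.8% in heart 1. For Vcan, heart 1 held 26.9% and heart 3 held 61.6%. Of the 9 genes, 7 were thus highest in heart 1, 1 in heart 2 and 1 in heart 3. Heart 1 also had the most genes detected (18570) of the 9 libraries, and the share of all genes highest in it is not given here. The summed CPM of the 8 small proteoglycans was 351 times that of Vcan in heart 1, 98.0 times in heart 2 and 32.3 times in heart 3. These are values of 3 libraries and carry no test.

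Marker genes also divided unevenly between the heart libraries. Of the 20 fibroblast genes, 16 were highest in heart 1, 3 in heart 2 and 1, Pdgfra, in heart 3. Of the 16 monocyte and macrophage genes, 5 were highest in heart 1, 4 in heart 2 and 7 in heart 3, among them the monocyte genes, picked after their values were seen, F13a1 (53.8% of its heart CPM in heart 3), Ly6c2 (54.9%) and Plac8 (61.6%). Ccr2, from the same list, was highest in heart 1 (40.9%) and lowest in heart 3 (23.8%). Cd68 (57.4%) and Fcgr3 (55.7%) were also highest in heart 1, and Itgam (60.9%) in heart 2. Other lists leaned the same ways: 7 of 10 endothelial genes, 4 of 7 detected pericyte and smooth muscle genes, 4 of 5 detected reticular cell genes and 4 of 5 detected B cell genes were highest in heart 1, and 6 of 12 cardiomyocyte genes in heart 3. A further list leaned elsewhere, with 17 of 27 detected genes of chondroitin, dermatan and keratan chain synthesis highest in heart 2. The 12 Treg and T cell genes were split, with 5 highest in heart 1, 6 in heart 2 and 1 in heart 3. The macrophage gene Adgre1 was close to even, at 30.9, 37.6 and 31.4% in heart 1, 2 and 3.

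**Figure D3:**
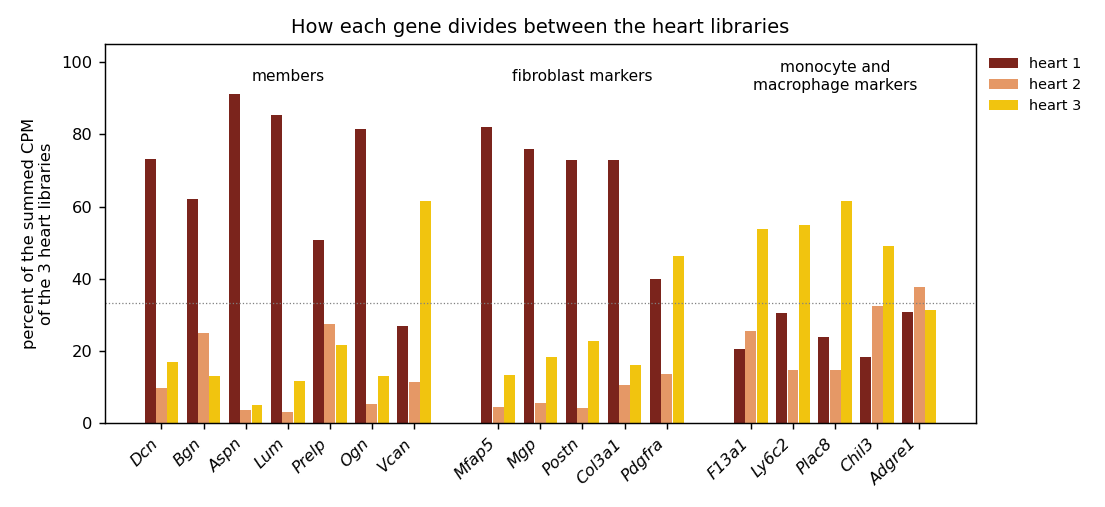
Share of each gene's summed heart CPM that lies in heart 1, 2 and 3 (vertical axis, percent), for 7 proteoglycan genes, 5 fibroblast markers and 5 monocyte and macrophage markers. The dotted line marks an even division. The 10 markers were picked after their values were seen, and over the whole lists 16 of 20 fibroblast genes were highest in heart 1 and 7 of 16 monocyte and macrophage genes in heart 3. The small proteoglycans and most fibroblast markers shown are highest in heart 1, while Vcan, Pdgfra and 4 of the 5 monocyte and macrophage markers are highest in heart 3.

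Per exon length, decorin was the most abundant member of the 9 in each heart library. Dcn averaged 1271 ± 1324 CPM per kb of exon (SD, n = 3), Aspn 224 ± 337, Lum 221 ± 300.0 and Ogn 134 ± 169. Bgn averaged 15.2 ± 11.7 CPM per kb, Vcan 4.93 ± 3.79, Prelp 4.17 ± 1.92, Podn 0.191 ± 0.257 and Fmod 0.0300 ± 0.0519. Dcn exceeded the second gene in 3 of 3 libraries, by 4.56-fold over Aspn in heart 1, 14.8-fold over Aspn in heart 2 and 8.44-fold over Lum in heart 3. Ogn exceeded Bgn, and Bgn exceeded Prelp, in 3 of 3. Aspn, Lum and Ogn changed places between libraries, and Vcan changed place with Bgn and with Prelp, so these neighbours did not differ beyond their spread. Decorin made up 80.8, 89.8 and 89.4% of the summed CPM of the 8 small proteoglycans in heart 1, 2 and 3. Together the 9 genes took 1.51, 0.271 and 0.362% of all counts in heart 1, 2 and 3, against 0.000478 to 0.000667% in the MLN and 0.000285 to 0.00146% in the spleen.

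**Figure D4:**
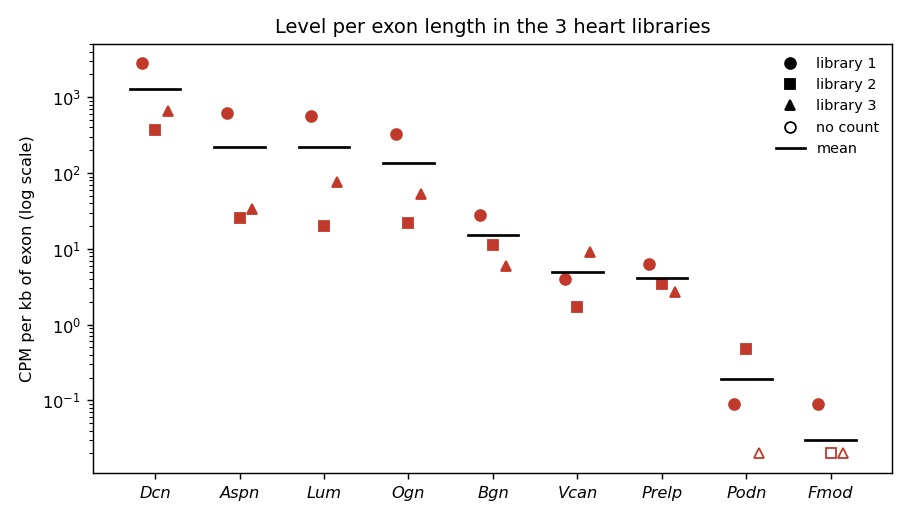
CPM per kb of exon (vertical axis, log scale) of each gene in the 3 heart libraries, with the mean as a line. Genes run from the highest mean, Dcn at 1271 CPM per kb, to the lowest, Fmod, and open markers are libraries with no count.

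Between the lymphoid organs, Dcn was the one member whose libraries did not overlap, with all 3 MLN libraries above all 3 spleen libraries. The levels given above, 3.23 ± 1.69 CPM on average in the MLN and 0.183 ± 0.0499 CPM in the spleen (SD, n = 3 each), differed by log2 4.13 (SE 0.86). The unadjusted p was 0.00117 and the adjusted p was 0.684 (edgeR), so the difference did not pass. Of all genes tested, 4.52% were higher in every MLN library, 5.75% (955 genes) had an unadjusted p below 0.05, and 0 genes (0%) passed after adjustment. DESeq2 called 727 genes in this comparison, among them 3 members, Dcn higher in the MLN and Lum and Prelp lower. The summed fibroblast genes overlapped between MLN and spleen libraries, but Thy1, which T cells also express, and Gsn made up most of the sums. Without these 2 genes, chosen after their values were seen, the other 18 summed to 11.8, 15.1 and 18.2 CPM in MLN 1, 2 and 3. In spleen 1, 2 and 3 they summed to 7.74, 3.41 and 2.18 CPM, so every MLN library was above every spleen library. A few genes carried these sums. Serpinf1 overlapped, at 8.25, 10.5 and 3.25 CPM in MLN 1, 2 and 3 against 6.64, 2.48 and 0.321 CPM in the spleen. Col1a2 gave 9.96 CPM in MLN 3. Of the 19 fibroblast genes tested, 1 did not overlap. This was Fbln2, at 3.36, 1.83 and 3.09 CPM in the MLN against 0, 0 and 0.114 CPM in the spleen. Over the 19 genes the median log2 difference was 0, a value set by genes with no count in either organ. These were Col5a1, Col6a1, Mfap5, Fbln1, Loxl1 and Fstl1, so the median does not describe the genes with lymphoid counts. Among the tested genes with such counts, Col1a1, Col3a1, Pdgfra, Pcolce and Gsn were lower in the MLN. The others were higher, and none passed. The part of stromal cells in the Dcn level was not tested.

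For the other members, MLN and spleen libraries overlapped. Fmod and Podn had no lymphoid count, Bgn and Vcan were low in both organs at the counts given above, and Aspn and Ogn lay well above the floor in several libraries. Lum had 240 and 7 counts in spleen 1 and 2, Prelp 162 counts in spleen 1, and neither had a count in the MLN. Aspn had 219, 167 and 0 counts in MLN 1, 2 and 3 against 1863, 165 and 430 counts in spleen 1, 2 and 3 (log2 -2.98, SE 1.93, adjusted p = 1, edgeR). Ogn had 434, 565 and 115 counts in MLN 1, 2 and 3 against 0, 1125 and 60 counts in spleen 1, 2 and 3 (log2 -0.12, SE 1.79). Aspn in spleen 1, at 12.0 CPM, was above Dcn in every lymphoid library.

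Other genes of proteoglycan biology were counted in lists. Among 10 further small leucine-rich proteoglycans, 5 passed the filter and none rose or fell in the heart against either organ. Their median log2 difference was 4.15 against the MLN and 3.21 against the spleen, where the median of all genes was 0.12 and 0.02. The most abundant were Epyc, which encodes epiphycan of cartilage, with 90.4 CPM in heart 1 and no count elsewhere, Ecm2 at 36.9, 10.6 and 15.4 CPM in heart 1, 2 and 3, and Omd, which encodes osteomodulin, at 37.7, 0.0319 and 8.82 CPM. All 4 genes of the chromosome 13 cluster, Ecm2, Aspn, Omd and Ogn, thus had their highest heart level in heart 1. Of the chromosome 10 cluster, Kera had no count in any library.

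Of 24 genes that make, bind or clear hyaluronan, the partner of versican, 9 passed the filter. In both comparisons 1 of them rose, where 1.1% of all genes tested rose against the MLN and 0.614% against the spleen. This was Cd44, a hyaluronan receptor of activated T cells and of many other cells, at 977, 1493 and 2014 CPM in heart 1, 2 and 3. It stood at 170, 138 and 78.6 CPM in MLN 1, 2 and 3 and at 177, 211 and 323 CPM in spleen 1, 2 and 3. The groups did not overlap (log2 3.54, SE 0.47, adjusted p = 0.0204 against the MLN, and log2 2.66, SE 0.45, adjusted p = 0.0452 against the spleen, edgeR). The list's median was 2.36 against the MLN and 1.78 against the spleen. The large hyaluronan-binding relatives Acan, Ncan and Bcan and the link proteins Hapln1, Hapln2 and Hapln3 had no count in any library. The hyaluronan synthases Has1 and Has2 had counts in 2 heart libraries each and none in the lymphoid organs.

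Of 31 genes that build or sulfate chondroitin, dermatan and keratan chains, 26 passed the filter, none rose and 1 fell in each comparison, where 0.283% of genes tested fell against the MLN and 0.175% against the spleen. The gene that fell was Chst3, a chondroitin 6-O-sulfotransferase, with no count in the heart, 2.96, 8.08 and 18.8 CPM in MLN 1, 2 and 3 and 6.03, 1.06 and 7.13 CPM in spleen 1, 2 and 3. It was at least 703-fold lower in the heart than in the MLN (adjusted p = 0.0385) and at least 336-fold lower than in the spleen (adjusted p = 0.0492, edgeR). The median of the list was 0.85 against the MLN and 0.73 against the spleen.

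Of 17 genes for proteases that cut these proteoglycans or their collagen partners, and helpers of such proteases, 11 passed the filter. Against the MLN 3 rose, Adamts1, Adamts9 and Mmp3, and against the spleen 2, Adamts9 and Mmp3, and none fell. The shares of all genes tested that rose were 1.1% against the MLN and 0.614% against the spleen. Adamts9, a versican-cleaving enzyme, stood at 18.0, 36.2 and 16.7 CPM in heart 1, 2 and 3 and had no count elsewhere (at least 1793-fold higher than in the MLN, adjusted p = 0.0408, and at least 1616-fold higher than in the spleen, adjusted p = 0.0492, edgeR). Adamts1, a further versicanase, stood at 21.2, 18.7 and 8.58 CPM in the heart against no count (adjusted p = 0.0498 against the MLN and 0.0621 against the spleen, edgeR). Mmp3, the matrix protease stromelysin, stood at 261, 125 and 132 CPM in the heart, with 0.0464 CPM in MLN 3 and no other lymphoid count (adjusted p = 0.0400 against the MLN and 0.0398 against the spleen, edgeR). With genes of an empty organ at their bound, the list's median was 10.61 against the MLN and 10.46 against the spleen.

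Of 32 receptors, ligands and matrix partners, 31 passed the filter. Against the MLN 3 rose, Fbln1, Itgb1 and Cd14, and against the spleen 1, Fbln1. Among all genes tested, 1.1% rose against the MLN and 0.614% against the spleen. Fbln1, which encodes fibulin-1, a matrix partner of versican, stood at 60.9, 118 and 69.2 CPM in heart 1, 2 and 3 with no lymphoid count, and is also in the fibroblast list. Cd14, the co-receptor of TLR2 and TLR4 on monocytes, averaged 249 ± 16.9 CPM in the heart, 0.303 ± 0.302 CPM in the MLN and 4.82 ± 2.88 CPM in the spleen (adjusted p = 0.0193 against the MLN and 0.0517 against the spleen, edgeR) and is in the monocyte and macrophage list. The receptors Tlr2 and Tlr4 did not pass in either comparison. The list's median was 3.57 against the MLN and 4.05 against the spleen. The calls in these lists were as sensitive to single libraries as those of the members: over the 9 fits that left out 1 library, each held in 0 to 6.

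The genes whose profile over the 9 libraries lay closest to each abundant member were found by the root mean square difference of centred log2(CPM + 1). This distance is a description, and with 6 lymphoid libraries near 0 it mostly compares the step between organs and the spread within the heart. Closest to Dcn were the chemokine genes Ccl7 (1.10) and Ccl2 (1.31) and the sodium channel gene Scn7a (1.33), against a median of 5.42 over all genes. Closest to Bgn were Bicc1 (0.14), Rgs5 (0.19) and Pdgfrl (0.24), and closest to Lum were Mfap5 (0.44), Emcn (0.48) and Tmem45a (0.62). Ogn was closest to Cp (0.59), Xcl1 (0.69) and Il6 (0.79), Aspn to Gfpt2 (0.68), C3ar1 (0.82) and Plac9a (1.02), and Prelp to Serpinh1 (0.27), P4ha2 (0.32) and Myl3 (0.33). Vcan was closest to Rbms3 (0.20), Pde3a (0.29) and Fxyd1 (0.32). Among the members themselves, the closest pair was Aspn and Lum (0.94) and the next Bgn and Vcan (0.96), while the farthest was Dcn and Prelp (3.68).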

How the data were processed

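Raw counts of reads per gene were deposited by the authors as 1 table of 9 libraries. Per the submitters' processing notes, mm10 was the build and the tools were HTSeq 0.6.0, HISAT2 and CASAVA 1.8.2, and per the labels' protocols a SMARTer kit for ultra low input made the libraries, so levels include PCR amplification. The annotation release and the strand setting remain not given in the sources used here. The test was run with edgeR 4.0.16 (R 4.3.3): filterByExpr (minimum count 10, minimum total 15) left 16609 genes, libraries were scaled by TMM, and all 9 libraries entered 1 quasi-likelihood fit of organ means (6 residual degrees of freedom). P-values are two-sided, adjusted by Benjamini-Hochberg over all genes tested, and called below 0.05. SEs derive from the F statistic. CPM uses TMM-scaled totals. The procedure was also run on simulated counts for the heart against the spleen, and no call in the report rests on that run. All pairs of libraries from 1 organ differed by more than sampling noise. Exon lengths and coordinates come from GENCODE vM21. Alternatives used DESeq2 1.42.0, limma 3.58.1, other filters, scalings and subsets. Of related genes, those that passed were named, and otherwise up to 3 by heart level, while Kera, Tlr2, Tlr4 and the uncalled hyaluronan genes were named after their values were seen. Names such as Ccn2 were matched through RefSeq synonyms. The members and all lists were chosen with earlier results of these data known. The result of 1 gene of the list of receptors, ligands and matrix partners is not reported here.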

Additional observations from a re-analysis of the deposited data

How the results depend on the processing

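In the heart against the MLN and the spleen, the 7 tested members kept their direction in every alternative that gave an adjusted p. These were 118 values in each comparison. Their calls did not hold in the same way. Against the spleen, 2 members and 131 genes passed in the fit of the report, against 5 and 1875 with DESeq2, 4 and 1141 with limma-voom, 0 and 0 with the replicate block, 0 and 3 without spleen 3, MLN 3 and heart 2 together, and 0 to 2 and 0 to 122 without 1 library. Both organs fitted alone gave 292 genes. Against the MLN, 3 members and 230 genes passed, against 6 and 2211 with DESeq2, 5 and 1332 with limma-voom, 0 and 0 with the replicate block, 6 and 548 with both organs fitted alone, 0 and 4 without those 3 libraries, and 0 to 3 and 0 to 249 without 1 library. In the MLN against the spleen, 0 members and 0 genes passed, against 3 and 727 with DESeq2 and 3 genes with limma-voom, and 0 in each fit that left out 1 library. Unfiltered, stricter and rescaled fits gave the same numbers of members passing. Rescaling by relative log expression moved the median of all genes to 0.22 against the MLN, where TMM gave 0.12. DESeq2 gave Aspn no adjusted p, so its DESeq2 direction is not among the 118 values. Same-numbered libraries of different organs deviated together with correlations of -0.21 to 0.22 over 9 pairs, 3 of which correlated best with their own number, and their numbers are not said to mark an animal or a day, so the replicate block is given only here. In the MLN against the spleen the sign of Ogn turned to log2 3.03 with limma-voom, 0.59 with the replicate block, 3.98 without spleen 2 and 0.33 without MLN 3, with -0.70 to 3.98 over all fits without 1 library. There the sign of Bgn, which rests on 5 counts in each organ, turned to 3.82 without spleen 2, 0.45 without MLN 1 and 0.50 without MLN 3, with -3.90 to 3.82 over such fits. The causes were not tested. Counts of 3 or fewer per library cannot be told from 0.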
